A study of Rattus norvegicus with 8 samples.

Results

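The enzymes described here write, remove or work beside methyl marks on DNA and histones in the rat hippocampus. They are Dnmt1, Dnmt3a, Dnmt3b, Kdm6b, Setdb1, Smarca4, Smarcal1 and Crebbp. Every probe of the array named for one of these 8 genes was taken, whatever its signal. The search by file name gave 8 probes, and 2 further probes listed under Jmjd3, an older name of Kdm6b, were added through RefSeq. The set therefore held 10 of the 15207 rat probes, with 9 distinct sequences. Despite the heading under which they are grouped, Smarca4 and Smarcal1 are remodelling or annealing motor proteins and Crebbp is an acetyltransferase, so 5 of the 8 genes are methylation enzymes in the strict sense.

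The samples were hippocampal tissue of rats aged 2 months, 8 in all. As pups, 4 had received fluoxetine, a serotonin reuptake inhibitor, at 10 mg/kg from postnatal day 2 to 21, and form the PNFLX group. The other 4, the control group, had received the vehicle, sucrose solution at 5%, over the same days. Strain, sex and litter are not given in the sources used here, nor whether each sample was a separate animal, so p-values measure the spread between these samples. The sample descriptions give end days of treatment that run from 21 to 28 in sample order, and the treatment protocol, with day 21, was followed. The comparison asks which transcripts of the adult hippocampus differ after exposure to the drug in early postnatal life.

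DNA methyltransferases place methyl groups on cytosines, mostly before guanines. Dnmt1 copies the pattern after replication, and Dnmt3a and Dnmt3b set it anew. Setdb1 methylates histone tails at silenced chromatin, Kdm6b removes the methyl mark laid down by Polycomb, and Crebbp acetylates histones as a coactivator of CREB, a transcription factor of neuronal activity. Smarca4 is a motor subunit of the SWI/SNF remodelling complexes, and Smarcal1 rewinds single-stranded DNA at stalled replication forks. In the brain, DNA methyltransferases and histone methyl marks are known for parts in neuronal maturation, memory and the lasting effects of early experience.

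The probes are oligonucleotides of 60 bases. Those of Smarcal1, Kdm6b, Setdb1 and Dnmt1 are shown because the largest difference, the repeated spot, the second pair of groups that did not overlap and the maintenance methyltransferase rest on them; no base is marked by capitals.
Smarcal1: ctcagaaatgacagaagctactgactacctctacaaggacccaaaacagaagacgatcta
Kdm6b: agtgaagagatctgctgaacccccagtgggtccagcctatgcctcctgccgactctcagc
Setdb1: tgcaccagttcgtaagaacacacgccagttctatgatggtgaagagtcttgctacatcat
Dnmt1: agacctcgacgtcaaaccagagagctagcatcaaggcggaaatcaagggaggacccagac
The files place them on rn4, where the Smarcal1 probe spans chromosome 9 from 71972609 to 71974462 and the Dnmt1 probe chromosome 8 from 19952832 to 19955199. Both spans, 1854 and 2368 bases, are longer than the 60 bases of the probe, so each joins stretches that lie apart in the genome. Setdb1 is at chromosome 2, 190196074 to 190196133. For Kdm6b the files list a span of only 8 bases on chromosome 10, which cannot hold the probe, and its exact place is not given here. No annotation of exons was used. The Kdm6b sequence stands on the array at 2 spots, in spot rows 92 and 152 of 192, so those spots repeat 1 measurement and are not separate evidence.

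Signal is given as a log2 level, the log2 of the processed brightness minus the array's 75th percentile, so that 0 is a bright probe. The 75th percentile ranged from 654 to 941 brightness units over the 8 arrays, and 70.5% to 77.9% of all probes were well above background. Arrays correlated at 0.948 to 0.983. All 8 arrays share a slide, on which each group fills a row of its own. An effect of the row and one of the group cannot be told apart. Hippocampal neuron markers were present: of 9 measured, 0 reached a limma adjusted p under 0.05 and 2 an unadjusted p under 0.05, and their mean log2 level was 0.63 to 0.95 in controls and 0.39 to 0.91 in PNFLX. Of 10 oligodendrocyte markers 8 were lower in PNFLX (the median difference was -0.28), with mean log2 levels of 2.04 to 2.27 in controls and 1.84 to 2.00 in PNFLX. Of 8 meningeal markers 7 were higher (median 0.34), with levels of -0.65 to 0.19 in controls and -0.30 to 1.23 in PNFLX, the highest in PNFLX 1. None of these 18 passed. Of 6 endothelial markers 3 were higher and 3 lower (median 0.10). Among them 1, Emcn, whose spot lies in row 1 beside that of Smarcal1, passed as higher (log2 difference 2.30, limma adjusted p = 0.0277). The endothelial list's mean log2 level was -2.32 to -1.77 in controls and -1.73 to -1.36 in PNFLX. All 4 blood markers were higher, 2 at an unadjusted p under 0.05, and all 4 choroid plexus markers measured were lower, with control levels from -5.13 to 0.94; none of these 8 passed. Their part in the values that follow was not tested, and in whole tissue fewer cells of a type and less RNA per cell cannot be told apart.

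Among the chromatin enzymes the probe of Smarcal1 read higher in PNFLX, and no other member passed. That probe lies in the outermost spot row, where 13 of 49 kept probes passed, all higher, and its call was lost with row and column medians subtracted (limma adjusted p = 0.0785) and with normexp background correction (adjusted p = 0.299). A total of 9 member probes, of 7 genes, were well above background on at least 4 arrays and entered the fit over 11600 probes. The threshold, a limma adjusted p of 0.05, was met by 1 of the 9 and by 0.672% of all kept probes (78 of 11600, of which 43, or 0.371%, were higher and 35, or 0.302%, lower). That split was 120 higher and 23 lower without scaling between arrays, and 14 higher and 36 lower with normexp background correction, which moved the median log2 difference of all probes by 0.30 and -0.35. The groups did not overlap for 3 of the 9 probes, those of Smarcal1, Setdb1 and the Kdm6b spot of row 152, against 10.7% of all kept probes (2 of the 9 higher, against 4.33%, and 1 lower, against 6.41%). An unadjusted p under 0.05 was reached by the same 3, against 12.5% of all kept probes. With 9 probes, 2 of them of the same Kdm6b sequence, such counts are small. The members were also chosen with earlier results of these data known, so the shares are no test of the group. Of the 9 differences 4 were above 0 and 5 below.

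**Figure D1:**
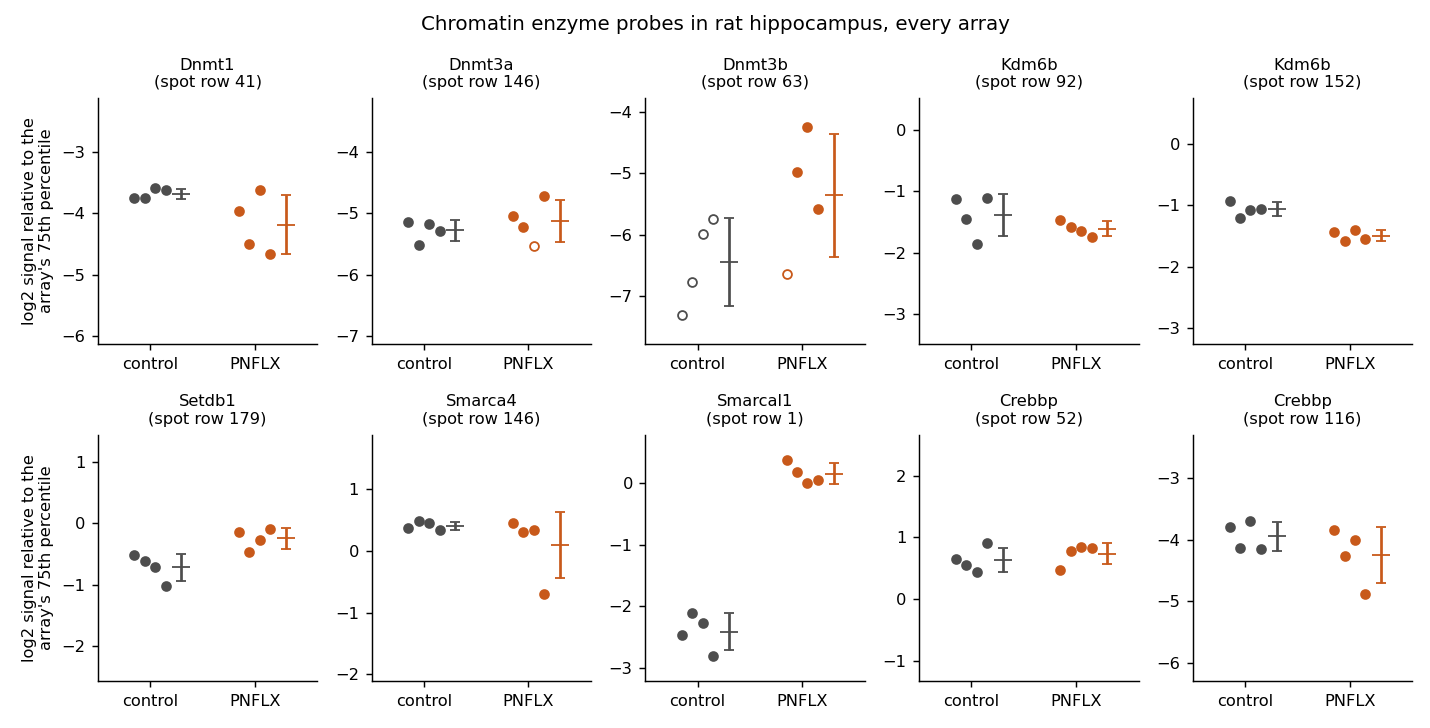
Log2 level (relative to the array's 75th percentile) of each of the 10 chromatin enzyme probes in the 4 control (grey) and 4 PNFLX (orange) arrays, with the mean and SD beside the points; open points were not well above background, and every panel spans 4 log2 units. The Smarcal1 groups lie apart by more than 2 log2 units, while in the other 9 panels the groups overlap or lie apart by 0.20 or less.

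The maintenance methyltransferase Dnmt1 had log2 levels of -3.75, -3.75, -3.59 and -3.63 in controls 1 to 4, and -3.97, -4.49, -3.62 and -4.66 in PNFLX 1 to 4. The controls lay close together, PNFLX 2 and 4 lay well below them, and PNFLX 3 lay among them. The log2 difference was -0.50 (SE 0.23, 95% interval -1.03 to 0.03, limma adjusted p = 0.427), from -3.68 ± 0.08 to -4.18 ± 0.48 (SD, n = 4). The SD was larger in PNFLX than in control. Without PNFLX 4 the log2 difference of Dnmt1 was -0.34, and without PNFLX 3 it was -0.69. The Dnmt1 spot lay in row 41 and in column 4, near the side edge of the array. Probes within 5 rows had a median of -0.11, which takes all columns together. Rows 30 to 35 lie outside the 5 rows around the Dnmt1 spot. Kept spots there in columns 2 to 8 mostly read lower in PNFLX too. Those in column 1 were at 1.66, -0.09, 0.07 and 0.83. With row and column medians subtracted the Dnmt1 difference was -0.24 (SE 0.18), and with medians of deviations subtracted -0.26 (SE 0.16). The part of the column alone was not tested.

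Dnmt3a, which sets methylation anew in neurons, was read by a dim probe on chromosome 6 (26881322 to 26881381, rn4), which was well above background everywhere but on PNFLX 3. Its log2 levels were -5.14, -5.52, -5.17 and -5.29 in controls and -5.05, -5.22, -5.53 and -4.72 in PNFLX. The groups overlapped, with both the lowest and the highest value in PNFLX. The log2 difference was 0.15 (SE 0.19, 95% interval -0.29 to 0.59, limma adjusted p = 0.771), which leaves room for a change of either sign. It was 0.01 without PNFLX 4 and 0.28 without PNFLX 3. With normexp background correction the sign turned, to -0.89 (SE 0.64), where the median over all probes was -0.38.

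Dnmt3b, the other methyltransferase that sets new marks, was not well above background on any control array and was so on 3 of 4 PNFLX arrays. It therefore stayed below the minimum of 4 arrays and had no call. Its log2 levels were -7.30, -6.77, -5.99 and -5.74 in controls and -6.63, -4.97, -4.26 and -5.58 in PNFLX, so PNFLX 1 lay among the controls and the remaining PNFLX values above all of them. A bound was taken on each control array as the higher of the lowest signal well above background there and the probe's own value. Against the mean of these bounds (log2 level -5.99) the PNFLX mean was 1.55-fold higher. The measured means were -6.45 ± 0.71 in control and -5.36 ± 1.00 in PNFLX (SD, n = 4). That PNFLX mean takes PNFLX 1 at its measured -6.63, where the probe was not well above background. The 1.55-fold is therefore no strict lower limit. In a fit with no filter, over all 15207 probes, the difference did not pass (limma adjusted p = 0.574). The Dnmt3b spot lay in row 63 and in column 82, the last of the array, and the part of this position was not tested. The bound compares group means only: it rests on values near the floor of the array, and the test did not separate the groups of this probe (chromosome 3, 143974644 to 143974703, rn4) from the spread.

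Setdb1, the histone methyltransferase, had log2 levels of -0.52, -0.62, -0.70 and -1.03 in controls and -0.14, -0.47, -0.27 and -0.10 in PNFLX. All PNFLX values were above all controls, by a margin of 0.05 between control 1 and PNFLX 2. The difference was 0.47 (SE 0.16, 95% interval 0.11 to 0.83), or 1.39-fold higher, and did not pass over all probes (limma adjusted p = 0.277). Its spot lay in row 179, where all probes within 5 rows had a median log2 difference of 0.20, and 161 of those 657 probes had a larger difference. The unprocessed spot brightness was 295 to 689 in controls and 558 to 679 in PNFLX and so overlapped. With normexp background correction, which starts from it, the difference was -0.09 (SE 0.29). The median over all probes was -0.38 in that setting, and Setdb1 lay above it.

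Kdm6b, the histone demethylase, was read by the same sequence at 2 spots. In row 152 the log2 levels were -0.93, -1.20, -1.07 and -1.06 in controls and -1.43, -1.59, -1.40 and -1.55 in PNFLX. Every PNFLX value lay below every control there, and the difference was -0.43 (SE 0.12, limma adjusted p = 0.206). In row 92 the log2 levels were -1.13, -1.45, -1.85 and -1.11 in controls and -1.46, -1.58, -1.64 and -1.74 in PNFLX. Here control 3 lay lowest of all, the groups overlapped, and the difference was -0.22 (SE 0.19, limma adjusted p = 0.650). Without control 3 it was -0.38, and without control 4 it was -0.13.

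Within an array the spot of row 152 read above that of row 92 by 0.78 on control 3 and by -0.01 to 0.24 on the other 7 arrays. Averaged over both spots, Kdm6b was at -1.23 ± 0.20 in control and -1.55 ± 0.09 in PNFLX (SD, n = 4), the groups just overlapped, and the log2 difference was -0.32 (SE 0.14, limma adjusted p = 0.406). This averaging was chosen after seeing the data. The differences of the 2 spots were 0.21 apart (two-sided exact permutation test of the spot gap over samples, p = 0.2, adjusted over 2 such tests 0.314, smallest p possible 0.0286). Of 938 pairs of inner spots (rows 21 to 172) with the same sequence, 41.8% were at least as far apart, with a median gap of 0.16. The sign of the row 92 spot turned without scaling between arrays (0.08, SE 0.18), where the median of all probes moved up by 0.30.

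Crebbp, the acetyltransferase, had 2 probes of different sequence. The probe on chromosome 10 at 11723639 to 11723698 (rn4) had log2 levels of 0.65, 0.55, 0.44 and 0.90 in controls and 0.48, 0.78, 0.85 and 0.83 in PNFLX. These overlapped, with a difference of 0.10 (SE 0.15, 95% interval -0.25 to 0.45, limma adjusted p = 0.804), which leaving out 1 array moved to between 0.04 (without control 3) and 0.19 (without control 4). The unprocessed spot brightness of this probe, not scaled between arrays, did not overlap, at 980 to 1178 in controls and 1580 to 1833 in PNFLX. The arrays' 75th percentile of processed signal was 654 to 880 in controls and 873 to 941 in PNFLX. The share of all probes whose unprocessed brightness did not overlap was not counted. The other Crebbp probe, listed from 11655913 to 11673990 and so spread over 18078 bases, had log2 levels of -3.79, -4.13, -3.70 and -4.16 in controls and -3.85, -4.27, -4.01 and -4.89 in PNFLX. PNFLX 4 was lowest, and the difference was -0.31 (SE 0.24, adjusted p = 0.625). The 2 probes pointed opposite ways by 0.41, which the spread allows (two-sided exact permutation test, p = 0.314, adjusted p = 0.314). Without PNFLX 4 the second probe was at -0.09.

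Smarca4, the remodelling motor also called Brg1 in other work, had log2 levels of 0.37, 0.48, 0.45 and 0.34 in controls and 0.45, 0.31, 0.35 and -0.70 in PNFLX. PNFLX 1 to 3 lay within or just under the controls, and PNFLX 4 lay far below them all. The difference of -0.31 (SE 0.25, limma adjusted p = 0.633) became -0.04 without PNFLX 4.

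**Figure D2:**
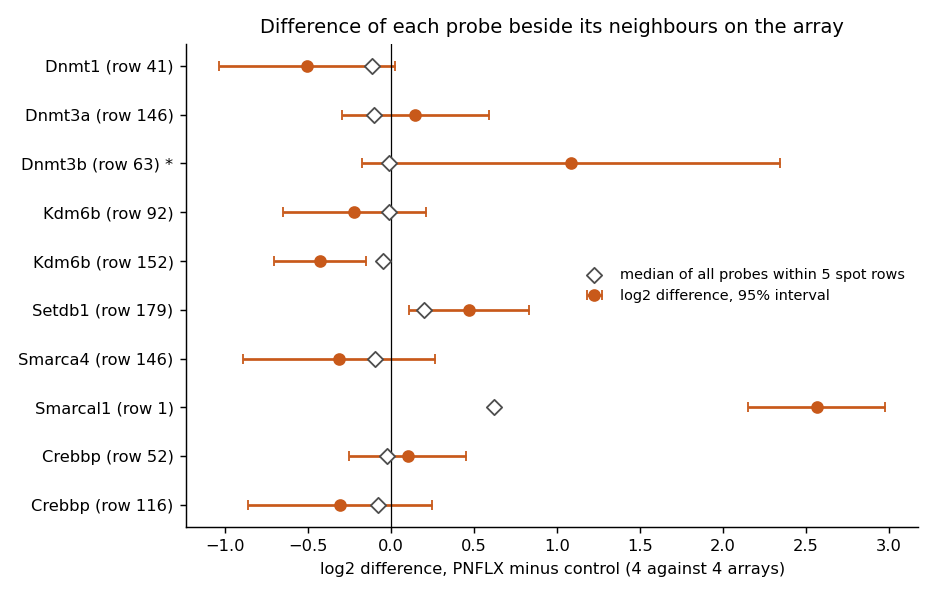
Log2 difference (PNFLX minus control, 4 arrays against 4) of each chromatin enzyme probe with its 95% interval (orange), and the median log2 difference of all kept probes within 5 spot rows (open diamonds); the asterisk marks Dnmt3b, which did not pass the filter. The intervals of Smarcal1, Setdb1 and Kdm6b in row 152 exclude 0, and the diamond of Smarcal1 stands at 0.62, away from the others, which lie between -0.11 and 0.20.

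Smarcal1, the annealing helicase, had log2 levels of -2.47, -2.11, -2.27 and -2.80 in controls and 0.38, 0.19, 0.00 and 0.04 in PNFLX. The lowest PNFLX value lay 2.11 above the highest control, and the probe was well above background on all 8 arrays. Unprocessed spot brightness was 91.3 to 147 in controls and 916 to 983 in PNFLX, over a local background of 20 to 27, so the separation was present before any correction. The level rose from -2.41 ± 0.30 to 0.15 ± 0.17 (SD, n = 4), a log2 difference of 2.57 (SE 0.18, 95% interval 2.15 to 2.98), or 5.92-fold, with a limma adjusted p of 0.000688. It ranked sixth of the 11600 probes by p and thirty-fourth from the top by signed difference.

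The Smarcal1 spot lay in row 1, the outermost row of the array. Of the 49 kept probes in that row, 13 passed, all of them higher in PNFLX, the median log2 difference was 1.25, and 11 exceeded that of Smarcal1. Smarcal1 was in column 25 of that row. The kept spots beside it in columns 24, 26 and 27 were at 2.30, 2.69 and 2.73, and each passed. The spot in column 23 was at 0.85 and did not. In rows 1 to 5 the median was 0.75, with 33 of 267 probes past the threshold and all 33 higher, and in rows 21 to 172 it was -0.05, with 9 of 9310. The other 8 kept member probes lay in rows 41 to 179, where their differences ranged in size from 0.10 to 0.50.

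**Figure D3:**
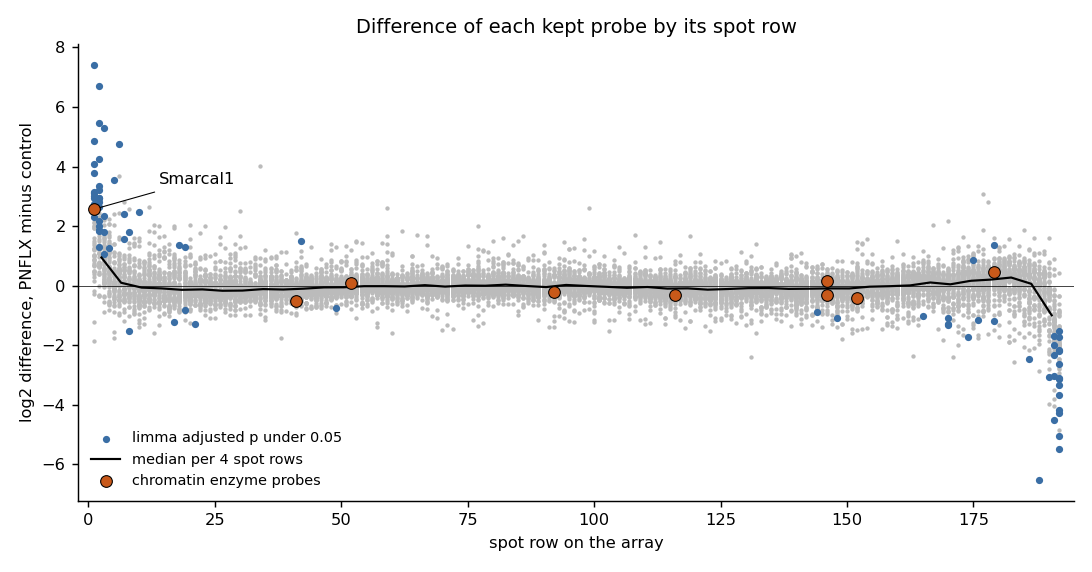
Log2 difference (PNFLX minus control) of each of the 11600 kept probes by its spot row, with probes past a limma adjusted p of 0.05 in blue, the median of every 4 rows as a black line and the 9 kept chromatin enzyme probes in orange. Blue points above 0 crowd at the first rows, where Smarcal1 lies at 2.57, and those below 0 at the last rows.

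Sequences that the array carries at more than 1 spot show what row 1 to 5 spots read beside inner spots. There were 50 sequences with exactly 2 kept spots, 1 in rows 1 to 5 and 1 in rows 21 to 172. The outer spots had a median log2 difference of 0.76 and their inner partners, of the same sequence and the same RNA, -0.09. The outer spot was higher in 44 of the 50 pairs, by 0.97 in the median. Of the 50 outer spots 6 passed the threshold, with a median difference of 3.63, and 0 of their 6 partners did, with a median of 0.33 (limma, in the same fit). One of these, chosen after its values were seen, was Sdc2, a membrane proteoglycan, at 2.69 in row 1, close to the size of Smarcal1, and at -0.05 in row 27. The row 1 spot of Sdc2 was in column 26, next to that of Smarcal1 in column 25. Smarcal1 has no such partner spot.

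**Figure D4:**
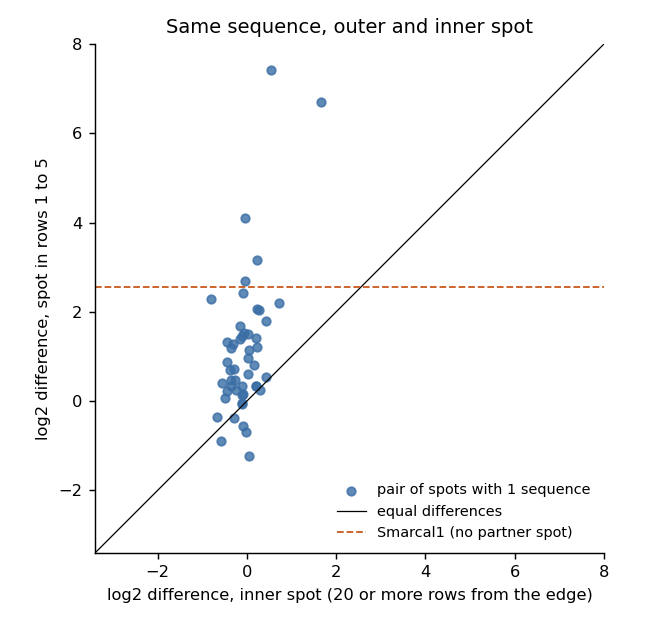
Log2 difference (PNFLX minus control) of 50 sequences at a spot in rows 1 to 5 (vertical axis) and at a spot in rows 21 to 172 (horizontal axis), with the line of equal differences and a dashed line at the Smarcal1 value of 2.57. Of the 50 points 44 lie above the line, and inner spots reach 1.66 where outer spots reach 7.42.

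The size of the Smarcal1 difference changed with the handling of spot position. When each array's row and column medians were subtracted it was 1.55 (SE 0.28) and did not pass (limma adjusted p = 0.0785). When the medians of deviations from each probe's mean were subtracted, an alternative chosen after seeing the data, it was 1.58 (SE 0.18) and passed (adjusted p = 0.0102). With normexp background correction it was 1.99 (SE 0.53, adjusted p = 0.299). Leaving out each array in turn gave log2 differences of 2.43 to 2.67, with limma adjusted p of at most 0.00611.

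In the wider chromatin lists, 0 of 132 measured genes other than the members passed in limma, and 15 (11.4%) had an unadjusted p under 0.05, beside 0.572% and 12.7% of all 9440 genes and unnamed probes. Of the 132, 63 were higher in PNFLX and 69 lower, and the median difference was -0.03, where 45.5% of all 9440 were higher and their median was -0.04. These lists used the brightest probe of each gene. Of 19 genes of DNA methylation, its readers and its removal, 9 were higher and 10 lower. Mat2a, which makes the methyl donor S-adenosylmethionine, was at a difference of 0.69 (SE 0.16, adjusted p = 0.112), and its second probe, in row 96, at 0.08. Without scaling between arrays the first Mat2a probe passed (0.99, limma adjusted p = 0.0319), and with normexp its sign turned (-0.78, adjusted p = 0.519). Ahcy, which clears the product of methyl transfer, was at -0.39 (SE 0.15) and the cytidine deaminase Apobec1 at 0.66 (SE 0.28), with second probes at -0.14 and -0.09. The first probe of Ahcy lay in row 21, where all probes within 5 rows had a median of -0.15. The first probes of Mat2a and Apobec1 lay in rows 183 and 181, where all probes within 5 rows had medians of 0.19 and 0.21. Both were the brighter probe of their gene over all 8 arrays but not in controls alone, where the mean log2 levels were -4.014 and -4.004 for the first and second probe of Mat2a and -1.44 and -1.11 for those of Apobec1. The difference itself thus entered the choice of probe for these genes. With normexp the signs of Ahcy and Apobec1 turned too.

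Of 21 histone lysine methyltransferases 11 were higher and 10 lower, with a median log2 difference of 0.00. Beside Setdb1, Ash1l, an activating methyltransferase, was at -0.40 (SE 0.14) and Mecom, a zinc finger protein of the same family, at 0.74 (SE 0.31), the latter dim, and well above background on only 1 array of the controls and 3 of PNFLX. Of 24 cofactors, largely of Polycomb and of the lysine methyltransferase complexes, 13 were higher and 11 lower. The Polycomb reader Cbx7 was at 0.62 (SE 0.16, limma adjusted p = 0.159), the histone binding protein Rbbp7 at 0.51 (SE 0.16), the Polycomb protein Bmi1 at 0.75 (SE 0.30) and its partner Phc1 at -0.80 (SE 0.29). The spots of Cbx7 and Bmi1 lay in rows 179 and 184, where the probes within 5 rows had medians of 0.20 and 0.18. Phc1, in row 16, column 8, and Ash1l, in row 8, had such medians of -0.11 and 0.09. The kept spots beside Phc1 in columns 7, 9 and 10 were at -0.29, -0.39 and -0.69, and the part of this position was not tested. Phc1 was at -0.51 without control 2 and Bmi1 at 0.50 without PNFLX 3, and with normexp the signs of Mecom, Bmi1 and Phc1 turned. Of 7 arginine methyltransferases 5 were higher and 2 lower, with Prmt1 at 0.36 (SE 0.18).

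Histone demethylases numbered 12, of which 5 were higher and 7 lower. Beside Kdm6b, the asparaginyl hydroxylase Hif1an, which shares the demethylases' fold, was at a difference of -0.62 (SE 0.14, limma adjusted p = 0.103), and Kdm4c at 0.48 (SE 0.15). Probes within 5 rows of Hif1an and Kdm4c had medians of -0.14 and -0.10. Among 36 remodellers of the SNF2 family and their subunits 15 were higher and 21 lower, and Smarcal1 alone passed. Arid1a, a subunit of the complexes that Smarca4 drives, had the largest difference in these lists, with log2 levels of -3.59, -3.47, -1.71 and -1.55 in controls and 0.39, -0.61 and 0.29 in PNFLX 1 to 3, the spot of PNFLX 4 having an outlier flag. The PNFLX values were all above the controls, which fell into a low and a high pair, and the difference of 2.60 (SE 0.59) did not pass (adjusted p = 0.130). Its spot was in row 59 and in column 81 of 82, near the side edge of the array. All 685 kept probes within 5 rows had smaller differences, but that comparison takes all columns together and does not account for the column. Smarcc1 was at -0.42 (SE 0.14) and Smarcad1 at 0.54 (SE 0.21), with medians within 5 rows of -0.14 and -0.06.

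Of 14 histone acetyltransferases 7 were higher and 7 lower, with the nuclear receptor coactivator Ncoa3 at 0.45 (SE 0.14) and its second probe at 0.09. Of 6 replication stress proteins that act with Smarcal1, 2 were higher and 4 lower, with the helicase Blm at 0.48 (SE 0.26), which was 0.23 without control 2. With normexp the signs of Kdm4c, Smarcad1, Ncoa3 and Blm turned. None of the genes just named, other than Smarcal1, passed in limma.

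**Figure D5:**
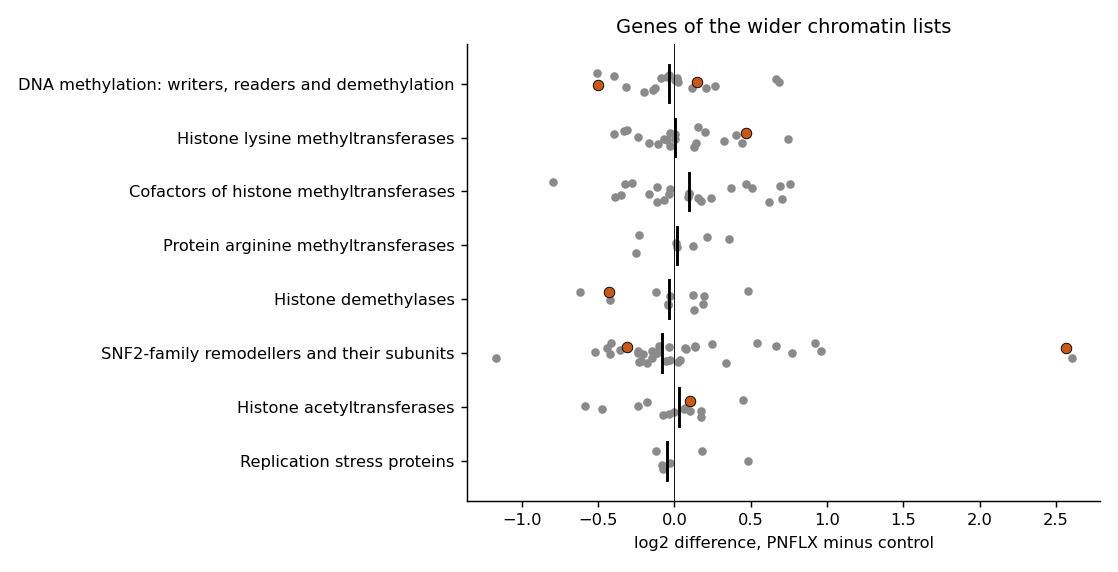
Log2 difference (PNFLX minus control) of each measured gene of 8 chromatin lists, 1 point per gene by its brightest probe, with the list's median as a black bar and the member genes in orange. Smarcal1 at 2.57 and Arid1a at 2.60 stand apart from the other points, which lie between -1.17 and 0.96.

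Likeness between genes was measured as the root mean square gap, over the 8 arrays, between log2 levels each taken relative to the gene's own mean. Nearest to Smarcal1 were the zinc finger gene Zfp207 (gap 0.25) and Ppargc1a, a coactivator of mitochondrial biogenesis (gap 0.34), where Smarcal1 itself varied by 1.30. The Zfp207 spot lay in row 1, column 27, near that of Smarcal1 in column 25, and the Ppargc1a spot in row 2, column 61. Nearest to Kdm6b, by its spot of row 152, were Zdhhc12 and Bicc1 (gaps 0.05 and 0.05, own variation 0.23), and nearest to Setdb1 were Fam120b and Celf6 (gaps 0.11 and 0.11, own variation 0.29). Nearest to Dnmt1 were Fgfr2 and Scrt1, to Dnmt3a Pitpnb and Dusp5, to Smarca4 Pigq and Cap1, and to Crebbp Srp54a and Actr3, with gaps of 0.07 to 0.10. The arrays share their scaling and spot layout, and with 8 arrays and 11600 probes close profiles are to be found for many genes.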

How the data were processed

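The authors' array intensity values (processed signal, spot brightness, local background) came from Agilent Feature Extraction 10.5.1.1 with spatial and multiplicative detrending, per the file headers, on a design of build rn4. A deposited table of log2 values by the authors differed by at most 0.00242 from the log2 processed signal after subtracting the 75th percentile of its array and then the median of the probe. Here the log2 levels lack that last centring. Over all arrays 521 outlier spots were left out, and a probe was kept if at least 4 of the 8 arrays had it well above background. The test was limma 3.58.1 under R 4.3.3 (lmFit, eBayes, Benjamini-Hochberg over 11600 probes, threshold 0.05). SE is the moderated standard error. The probe was the unit, since probes of a gene can differ; the brightest probe a gene was an alternative. RefSeq (GRCr8) names matched 14323 of 15207 probes. Members and lists were chosen with earlier results of these data known. Genes named from a list were up to 4 with the smallest p, of these those with an unadjusted p under 0.05, or the first where there was none. Likeness named 2 genes per member. The fit was tested on simulated data with independent noise and no effect of spot position. That test does not cover such an effect. Arrays number 4 per group, which limits precision.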

Additional observations from a re-analysis of the deposited data

Results flagged for a closer look

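The log2 level of Smarca4 on PNFLX 4 was -0.70, while the other 3 PNFLX arrays lay between 0.31 and 0.45. The gap to the nearest of them was 0.879 of the group's whole range, above the critical value of Dixon's test for 4 samples. Of 20 groups of member values examined in this way 1 stood out, and chance alone marks about 1 in 20.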

How the results depend on the processing

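The number of probes past the threshold, 78 in the report, was 48 with 1 probe a gene, 46 with no filter on dim probes, 47 with probes well above background on all 8 arrays, 143 without scaling between arrays, 50 with normexp background correction, 23 with row and column medians subtracted, 36 with medians of deviations subtracted and 0 without the first and last 5 spot rows (1261 at an unadjusted p under 0.05 in limma). Leaving out 1 array at a time gave 33 to 104, the lowest without control 4 and the highest without PNFLX 3. Of the member probes 0 passed with normexp, with row and column medians subtracted, or without the outer rows, which leaves Smarcal1 out. Of all genes in the chromatin lists 0 passed under those same 3 settings and 2, Smarcal1 and Mat2a, without scaling. Smarcal1 was at 1.99 and 1.55, and did not pass, with normexp and with row and column medians subtracted. Signs turned for Dnmt3a (-0.89) and Setdb1 (-0.0905) with normexp, for Kdm6b in row 92 without scaling (0.0762) and for Crebbp in row 52 with row and column medians subtracted (-0.0173). With normexp they also turned for Mat2a (-0.78), Ahcy (0.54), Apobec1 (-0.31), Mecom (-0.82), Phc1 (0.0456), Bmi1 (-0.81), Kdm4c (-0.60), Smarcad1 (-0.66), Ncoa3 (-0.12) and Blm (-0.42); the cause was not tested. Replicate numbers were used as a block in 1 alternative, where 13 probes passed and Smarcal1 kept its call (limma adjusted p = 0.0236). Same-numbered samples deviated together at correlations of 0.01 to 0.09. For replicates 2 and 3 these were 0.084 and 0.092, above those with other numbers (at most 0.027 and -0.016). For replicates 1 and 4 they were 0.008 and 0.022, beside at most 0.033 and 0.022. The main fit did not pair the samples, and whether the numbers mark pairs was not settled. Dim probes such as those of Dnmt3a and Dnmt3b limit what can be said of these genes.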

Other observations

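RefSeq promoters (GRCr8, 250 bases before to 50 after the start) were found for 7 of the 8 genes. The dinucleotide CG, counted on 1 strand and the same on the other, occurred 48 times in the promoter of Crebbp, 27 times in that of Smarca4, 21 in Dnmt3a, 19 in Kdm6b, 17 in Dnmt1, 16 in Setdb1 and 15 in Smarcal1. The median over all 33469 promoters was 7, and 1.04% of them held at least as many as Crebbp and 32.0% at least as many as Smarcal1. These counts describe the sequence and bear on no difference measured here.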
